A study of Mus musculus with 2 samples.

Results

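Hox genes encode homeodomain transcription factors that give cells of the embryo their position along the head-to-tail axis, and in the mouse they lie in 4 clusters. Every protein-coding gene of the GENCODE M21 annotation whose symbol is Hoxa, Hoxb, Hoxc or Hoxd followed by a number was taken, which gave 39 of the 21755 protein-coding genes on chromosomes 1 to 19 and X. On mm10, the Hoxa cluster holds 11 genes (chr6:52155590-52260880), the Hoxb cluster 10 (chr11:96194316-96368256), the Hoxc cluster 9 (chr15:102921103-103036852) and the Hoxd cluster 9 (chr2:74668310-74765142). Each cluster was examined with 50 kb on either side. A promoter was the sequence within 500 bp of any of a gene's annotated transcription start sites (TSSs), of which the 39 genes have 83.

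The accessible DNA was measured by DNase-seq, in which nuclei are cut lightly with DNase I and the cut ends are sequenced. The 2 libraries form a single group, so no conditions could be compared and no test was made. The tissue was left cerebral cortex; the animals were 2-month-old females of B6CASTF1/J, an F1 cross between the strains C57BL/6J and CAST/EiJ, and the libraries are called replicate 1 and replicate 2. The labels number the females separately but give both the same donor entry, so the spread between libraries may be partly technical. Whole tissue was used, without a sort for cell type, and reads of both parental genomes were placed on the C57BL/6J reference.

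Hox genes are switched on in sequence along the cluster during gastrulation, and their expression in the nervous system stays in the hindbrain and spinal cord. In the forebrain they are kept silent by Polycomb complexes, which cover the clusters with trimethylated lysine 27 of histone H3. The zinc finger protein CTCF binds inside the clusters, and in motor neurons such sites mark borders between active and Polycomb-covered Hox genes.

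The libraries were of similar depth. Peak heights were whole multiples of a fixed step from which 206 M and 208 M cuts were inferred, and replicates 1 and 2 held 128269 and 119597 peaks. Overlapping peaks of the libraries were merged into 154149, of which 80487 had members in both and are called shared. The label of the tissue was checked against marker promoters: a peak was present in both libraries at 8 of 8 genes of cortical excitatory neurons and 4 of 4 pan-neuronal genes, at 5 of 5 astrocyte and 2 of 5 oligodendrocyte genes, and at 0 of 5 microglial and 0 of 5 blood genes. Of the other lists, 2 of 6 endothelial, 3 of 4 pericyte, 5 of 7 meningeal and 4 of 8 hindbrain and midbrain genes had one. Over all protein-coding genes the share was 64.9%, so a list near that share says little about the tissue.

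Of the 15 shared peaks inside the clusters, 13 lay more than 1 kb from every Hox start. A sequence resembling the binding site of CTCF was found in 11 of the 15, against 18.5% of all shared peaks, by a scoring matrix added after the data were seen; at a stricter score it was 4 of the 15, against 14.4%. A core pattern of CTCF, counted before the matrix was added, was in 2 of the 15 (13.3%), against 9.84% of all shared peaks. The 11 stretches are shown first. Those that passed the stricter score lie between Hoxa11 and Hoxa13, between Hoxb13 and Hoxb9 (the first), between Hoxb9 and Hoxb8, and between Hoxd9 and Hoxd8. Each is 30 bases of the mm10 reference, written 5′ to 3′ on the strand of the site, and the capitals mark the 20 bases that scored as a site.
Start of Hoxa7, chr6:52221800-52221829, minus strand: aagaaAATTCCAGGAGATGGCAGTGtggct
Between Hoxa11 and Hoxa13, chr6:52257112-52257141, plus strand: agcttGTCAACACGAGGTGGCGCCCttgat
Between Hoxb13 and Hoxb9, first, chr11:96235097-96235126, minus strand: ctctcGCGGCCGGCAGGGGTCACTGtgtgg
Between Hoxb13 and Hoxb9, second, chr11:96240413-96240442, minus strand: cctagACAGACACTAGAGGGTGCTCggcgc
Between Hoxb9 and Hoxb8, chr11:96278939-96278968, plus strand: gcacaGTGGCCGCTAGATGGCATCCttgct
Intron of Hoxb6, chr11:96294689-96294718, minus strand: cccgaACGGACGGTAGATGGCAGCAaactg
Upstream of Hoxc8, chr15:102987584-102987613, plus strand: aacaaGTGAACGCGAGGTGGCGCTGttgct
Internal start of Hoxc5, chr15:103013693-103013722, plus strand: tccgaGTCGGCACCAGGTGTCGCTGtgagc
Exon of Hoxd11, chr2:74686471-74686500, plus strand: cttctACAGCCACACGAGGGCGCGCtcatg
Between Hoxd9 and Hoxd8, chr2:74702386-74702415, plus strand: cgcatTTGGCCACTAGAGAGCGCTGttgct
Exon of Hoxd3os1, chr2:74715912-74715941, plus strand: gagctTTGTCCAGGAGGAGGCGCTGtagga
All 5 sites of the Hoxc and Hoxd clusters lie on the plus strand, the strand of the genes there, and over the 4 clusters 7 were on the plus and 4 on the minus strand.

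Almost all Hox promoters of adult cortex were without a DNase peak. Hoxa7 and Hoxc5, both of the central paralog groups, were the 2 of 39 with a promoter peak in both libraries (5.13%), against 64.9% of all protein-coding genes. A peak in at least 1 library was present at 6 of 39, against 68.3%. Replicate 1 had a peak at 5 Hox promoters (66.8% of all genes) and replicate 2 at 3 (66.4%). The cut-rate tables list base pairs whose local cut rate passes a false discovery rate (FDR) of 0.05, and in at least 1 library they held base pairs of the same 6 Hox promoters, against 69.2% of all promoters. The remaining 33 genes had neither a peak nor a listed base pair in either library. A low cut rate below that threshold is not listed, so these promoters were not shown to be free of cuts. In whole tissue, a promoter open in few cells and one weakly open in many cells cannot be told apart.

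**Figure D1:**
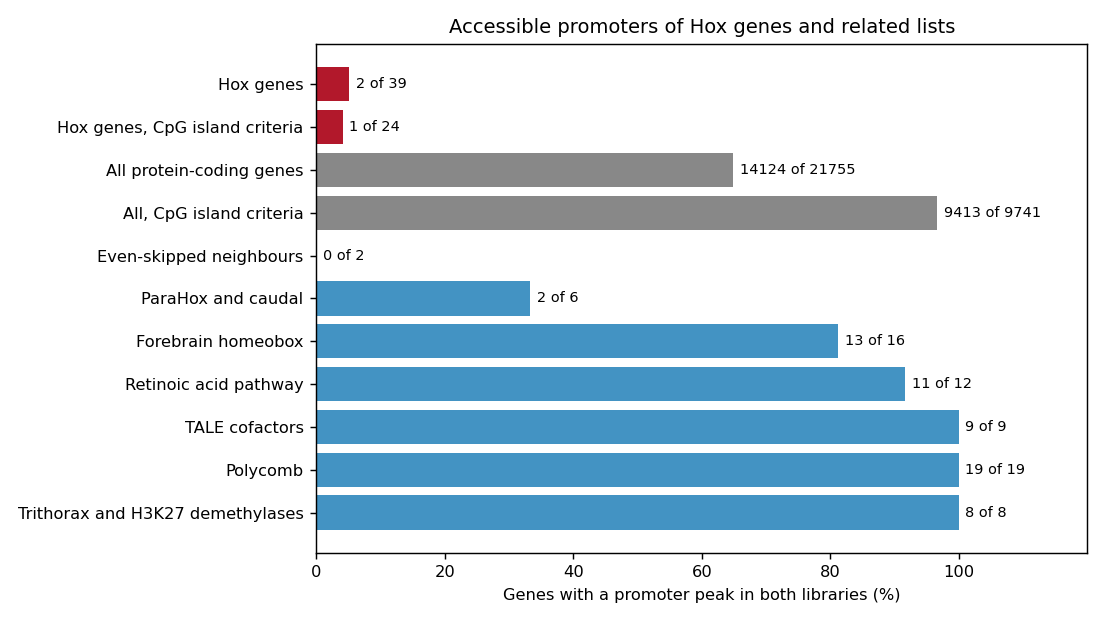
Share of genes with a promoter peak in both libraries (x axis, percent), with the number of genes beside each bar; red bars are Hox genes, grey bars all protein-coding genes and blue bars the related lists. Hox genes stand at 2 of 39, and at 1 of 24 among those whose start meets the CpG island criteria, while the Polycomb and Trithorax lists and the TALE cofactors stand at all of their members.

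Hoxa7, which takes part in patterning thoracic vertebrae, had the strongest Hox promoter peak. Its signal, the height of the cut density scaled to read depth by the authors, was 2.18 in replicate 1 and 2.40 in replicate 2, a mean of 2.29 ± 0.16 (SD, n = 2). The median over all protein-coding promoters with a peak in both libraries was 2.94, and the middle 50% ran from 1.58 to 4.40. The peak (chr6:52221681-52221920) covers the outermost start of Hoxa7 and holds the first stretch shown above; 551 bp of the promoter were listed in replicate 1 and 544 bp in replicate 2. The libraries gave nearly the same value there.

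At Hoxc5, a gene of the neck and upper trunk, the peak (chr15:103013621-103013800) lay 104 bp from an internal start and inside an intron of the longest transcript, whose own start had no peak. The signal was 0.717 in replicate 1 and 0.960 in replicate 2 (mean 0.839 ± 0.17, SD, n = 2). Both values lie under the lower quartile of promoter signal over all genes.

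At 4 further Hox promoters the peak was called in 1 library. Hoxa6, whose protein patterns the thorax, had a signal of 0.262 in replicate 1, Hoxd1, which acts in sensory neurons, 0.654, and Hoxd3, which patterns the first vertebrae, 0.165, while none of these had a peak or a listed base pair in replicate 2. Hoxb5, which acts at the level of the shoulder, had 0.706 in replicate 2 and neither in replicate 1. Among all protein-coding promoters, 1.84% were called in replicate 1 only and 1.51% in replicate 2 only. By signal among all peaks of replicate 1, Hoxa6 and Hoxd3 were weak, at percentiles 14.9 and 6.7, while Hoxd1 stood at 58.3. Hoxb5 stood at percentile 57.5 among the peaks of replicate 2. All 4 values lie under the lower quartile of promoter signal over all genes, 1.58. Of the 4 calls, 3 came from replicate 1.

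By position along the clusters, the promoters with a peak in at least 1 library belonged to the front and middle genes. Those with a peak in both libraries belonged to the middle genes only. Of the 12 genes of paralog groups 1 to 4, which act in the hindbrain and neck, 2 had a peak (Hoxd1 and Hoxd3), both in replicate 1 only. Of the 11 of groups 5 to 8, 4 had one in at least 1 library (Hoxa6, Hoxa7, Hoxb5 and Hoxc5), and 2 of these in both (Hoxa7 and Hoxc5). None of the 16 genes of groups 9 to 13, which pattern the lumbar region, limbs and tail, had one in either library. By cluster, 9 of 11 genes in Hoxa, 9 of 10 in Hoxb, 8 of 9 in Hoxc and 7 of 9 in Hoxd had no promoter peak in either library.

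Most Hox starts are rich in CpG dinucleotides, and starts of that kind were open almost throughout the genome. The window around the outermost start met common CpG island criteria (an observed/expected CpG ratio of at least 0.6 and a GC content of at least 50%) at 24 of 39 Hox genes (61.5%), against 44.8% of all protein-coding genes. By cluster this was 9 of 11 in Hoxa, 3 of 10 in Hoxb, 5 of 9 in Hoxc and 7 of 9 in Hoxd. The median window held 52 CpGs, against 41 over all genes. A peak in both libraries was present at 1 of the 24 (4.17%), Hoxa7, against 96.6% of all 9741 genes that met the criteria. Genes of that kind without a peak in both libraries numbered 328, and 23 of them were Hox genes (7.01%), which make up 0.246% of all genes that met the criteria.

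The sequences of 3 such promoters without a peak, chosen for the highest CpG numbers among the Hox entries, are given with that of an open homeobox promoter. Each is the 250 bases before the annotated start in the RefSeq table of build GRCm38.p6 (mm10), on the strand of the gene, with every CpG in capitals. In that table, 22 of the 39 Hox genes were found.
Hoxa13 (limb and urogenital tract), chr6:52260881-52261130, minus strand, no peak in either library: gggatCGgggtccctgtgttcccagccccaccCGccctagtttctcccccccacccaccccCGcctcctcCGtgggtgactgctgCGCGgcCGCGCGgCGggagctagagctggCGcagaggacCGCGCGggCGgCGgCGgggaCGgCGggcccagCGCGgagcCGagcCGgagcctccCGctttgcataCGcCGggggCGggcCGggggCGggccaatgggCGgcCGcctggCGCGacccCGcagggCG
Hoxd13 (digits), chr2:74667975-74668224, plus strand, no peak in either library: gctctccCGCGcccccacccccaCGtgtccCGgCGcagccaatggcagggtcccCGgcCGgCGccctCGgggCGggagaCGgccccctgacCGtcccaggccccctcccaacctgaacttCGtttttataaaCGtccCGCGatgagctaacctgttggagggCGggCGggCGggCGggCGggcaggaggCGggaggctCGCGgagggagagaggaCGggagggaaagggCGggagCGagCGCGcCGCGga
Hoxa5 (lung and neck), chr6:52204588-52204837, minus strand, no peak in either library: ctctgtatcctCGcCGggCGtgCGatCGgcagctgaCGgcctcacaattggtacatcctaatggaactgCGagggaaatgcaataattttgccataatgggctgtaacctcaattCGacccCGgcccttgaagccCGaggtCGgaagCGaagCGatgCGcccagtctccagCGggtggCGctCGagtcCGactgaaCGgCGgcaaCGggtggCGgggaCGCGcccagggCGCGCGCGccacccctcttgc
Lhx2 (cortical identity), chr2:38339031-38339280, plus strand, a peak in both libraries: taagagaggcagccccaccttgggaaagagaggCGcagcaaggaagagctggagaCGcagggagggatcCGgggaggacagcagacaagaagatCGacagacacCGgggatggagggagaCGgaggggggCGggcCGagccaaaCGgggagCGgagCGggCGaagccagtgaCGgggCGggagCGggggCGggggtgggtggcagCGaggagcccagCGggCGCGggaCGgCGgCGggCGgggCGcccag
The Hoxa13 stretch holds 35 CpGs, that of Hoxd13 31 and that of Hoxa5 28, and the open stretch of Lhx2 holds 25. The other entries of Hox genes in that table hold 2 to 24, and the open stretch of Emx1 holds 30. Over the 1001 bp around the start, Hoxa13 has 126 CpGs, Hoxa4 125 and Hoxd13 118, and Hoxa5 has the highest observed/expected ratio of the Hox genes without a peak, 0.996.

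**Figure D2:**
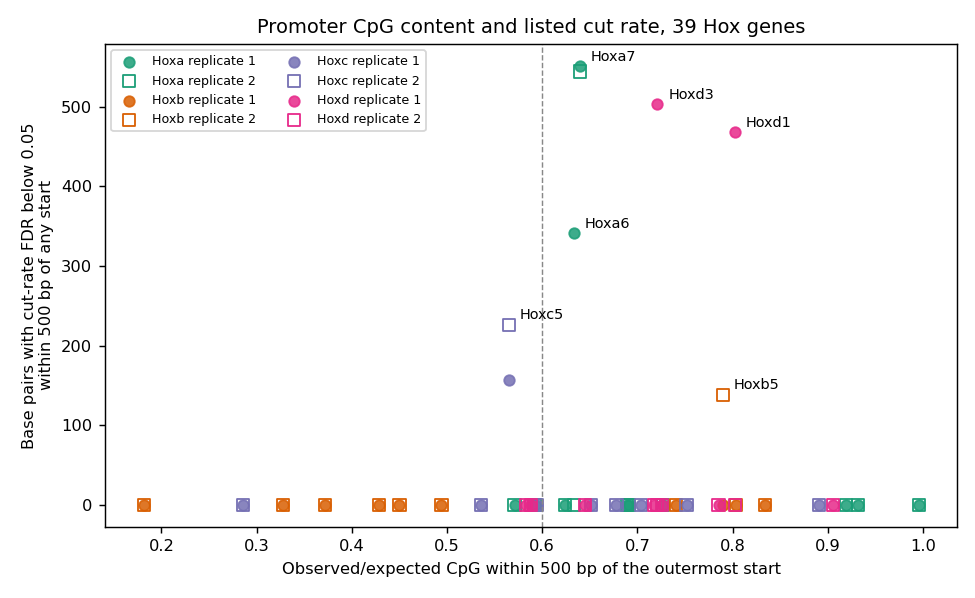
Observed/expected CpG ratio around the outermost start (x axis) and base pairs of the promoter with a cut-rate FDR below 0.05 (y axis) for the 39 Hox genes; filled circles are replicate 1, open squares replicate 2, colours the clusters, and the dashed line the ratio of 0.6. The 6 named genes lie above 0 in at least 1 library, and the other 33 lie at 0 in both, Hoxa5 at a ratio of 0.996 among them.

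None of the 7 microRNA genes inside the clusters, among them Mir10a, Mir10b and the copies of Mir196, had a promoter peak in either library, against 12.1% of all microRNA genes with one in both libraries and 16.8% with one in at least 1. Of 19 long noncoding genes, 3 had one in both and 6 in at least 1, against 24.4% and 29.7% of all long noncoding genes. The 3 were Hoxd3os1 (1.25 and 1.69 in replicates 1 and 2), 9530018H14Rik (1.29 and 1.42) and Gm11536 (0.538 and 0.495). In 1 library a peak was called at Haglr (0.654) and Gm14424 (0.140) in replicate 1 and at Gm53 (0.447) in replicate 2. Haglr and Hoxd1 start beside each other in opposite directions and share a peak, which DNase-seq cannot assign to either of them. Hotair and Hotairm1, long noncoding RNAs that are known from studies of Hox silencing and myeloid cells, had none.

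Although most Hox promoters had no peak, the clusters held accessible sites elsewhere. The 4 gene spans, 491.8 kb in all, held 15 shared peaks, or 3.05 per 100 kb, against 3.14 per 100 kb of the genome. Windows of 100 kb with a protein-coding TSS held a median of 4 (quartiles 2 and 7). Hoxb held 6 shared peaks and each of the other clusters 3. Another 7 lay in the flanks, 3 beside Hoxb, 2 beside Hoxa, 2 beside Hoxd and none beside Hoxc. Within 1 kb of any annotated TSS lay 5 of the 15, 33.3% against 33.2% of all shared peaks, and within 1 kb of a Hox TSS lay 2, those of Hoxa7 and Hoxc5. A footprint, a short protected stretch inside open DNA, was called in both libraries in 14 of the 15, against 83.3% of all shared peaks.

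**Figure D3:**
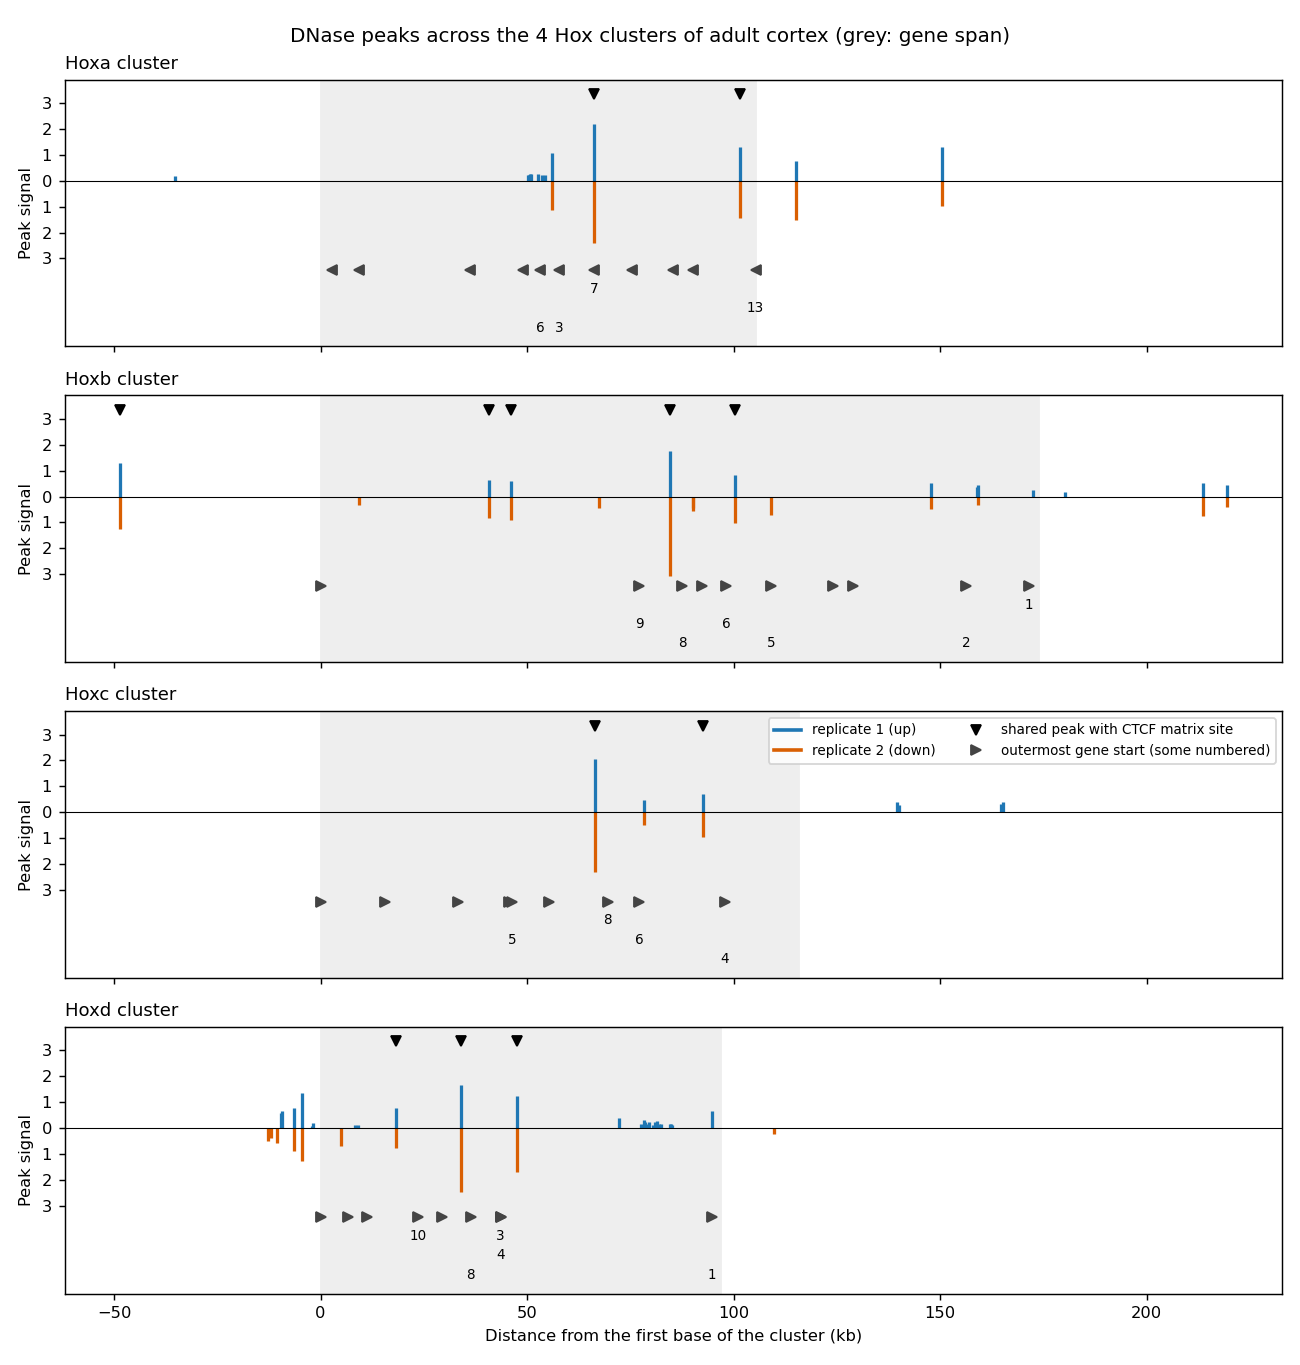
Peaks along the 4 clusters: distance from the first base of the cluster (x axis, kb) and peak signal (y axis), replicate 1 upwards and replicate 2 downwards. Grey marks the gene span, dark triangles below the outermost gene starts (numbered where the gene has a promoter peak or is nearest to a shared peak), and black triangles above the 12 shared peaks with a CTCF matrix site; the tall lines, such as 1.76 and 3.07 between Hoxb9 and Hoxb8, stand away from the gene starts, Hoxa7 excepted.

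In 3 clusters the strongest shared peak lay between genes or in an intron, a few kb upstream of a gene whose own start had no peak. In Hoxb it lay 2924 bp upstream of Hoxb8, in the space between Hoxb9 and Hoxb8 (chr11:96278901-96279060), with 1.76 in replicate 1 and 3.07 in replicate 2 (2.42 ± 0.93, SD, n = 2). Replicate 2 was higher there, and after centring for the overall offset only 4.74% of all shared peaks differed more between the libraries. In Hoxc it lay 2996 bp upstream of Hoxc8 (chr15:102987521-102987700), with 2.06 and 2.30 (2.18 ± 0.16). In Hoxd it lay 2214 bp upstream of Hoxd8 (chr2:74702301-74702500), with 1.68 and 2.47 (2.07 ± 0.56). Hoxb8, Hoxc8 and Hoxd8 are paralogs, copies of 1 ancestral gene, and Hoxa has no gene of that group; its strongest site is at Hoxa7.

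The whole accessible sites upstream of these 3 paralogs are given for comparison, on the plus strand of mm10, with the 20 bases of the CTCF-like site in capitals. The sites upstream of Hoxb8 (score 17.3) and Hoxd8 (16.6) passed the stricter score of 16.4. That upstream of Hoxc8 (14.3) passed only the main one of 13.5.
Upstream of Hoxb8, chr11:96278901-96279060: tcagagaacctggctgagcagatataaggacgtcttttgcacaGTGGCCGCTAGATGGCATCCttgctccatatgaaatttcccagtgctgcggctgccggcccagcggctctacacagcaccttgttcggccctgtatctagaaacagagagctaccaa
Upstream of Hoxc8, chr15:102987521-102987700: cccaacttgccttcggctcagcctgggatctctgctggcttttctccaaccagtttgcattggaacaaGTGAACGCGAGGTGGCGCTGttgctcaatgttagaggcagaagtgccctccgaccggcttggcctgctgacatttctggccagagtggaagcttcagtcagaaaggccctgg
Upstream of Hoxd8, chr2:74702301-74702500: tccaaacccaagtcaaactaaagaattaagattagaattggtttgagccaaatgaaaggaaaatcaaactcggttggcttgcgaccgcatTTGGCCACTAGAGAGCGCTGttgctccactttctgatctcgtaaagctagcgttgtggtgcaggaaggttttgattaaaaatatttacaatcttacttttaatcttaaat

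The other shared peaks of the Hoxa span were at the site between Hoxa11 and Hoxa13 (chr6:52257045-52257220), with 1.29 in replicate 1 and 1.42 in replicate 2 in an exon of 9530018H14Rik, and in an intron of Hoxa3 (chr6:52211621-52211860), with 1.07 and 1.14. In Hoxb, the site in the intron of Hoxb6 (chr11:96294601-96294820) had 0.828 and 1.01, and the pair in the gap of the cluster, 31046 bp and 36346 bp upstream of Hoxb9, had 0.610 and 0.888 (chr11:96240321-96240500) and 0.630 and 0.840 (chr11:96235001-96235220). The next in Hoxb, at the start of Gm11536 (chr11:96341861-96342273), had 0.538 and 0.495. These sites of Hoxb were weaker than its strongest in both libraries.

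In Hoxc, the peak at the internal start of Hoxc5 was followed by a site in an intron of Hoxc6 (chr15:102999236-102999372) with 0.460 and 0.504. In Hoxd, the exon of Hoxd3os1, inside the long transcripts of Hoxd3 and Hoxd4 (chr2:74715841-74716040), had 1.25 and 1.69, and the exon of Hoxd11 (chr2:74686421-74686534) had 0.785 and 0.788. Together these made up all 3 shared peaks of each of the 2 spans.

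In the flanks, 3 of the 7 shared peaks lay beside the even-skipped genes, homeobox genes that border Hoxa and Hoxd. One lay 7377 bp from the start of Evx1 (chr6:52305921-52306320), with 1.31 in replicate 1 and 0.994 in replicate 2. Beyond Hoxd13, sites 4204 bp and 2444 bp from the start of Evx2 had 1.37 and 1.28 (chr2:74663661-74663860) and 0.765 and 0.874 (chr2:74661901-74662100). A site 9821 bp upstream of Hoxa13 (chr6:52270601-52270800) had 0.775 and 1.51, and 1.78% of shared peaks differed more. The flank of Hoxb held a site in an intron of Ttll6 (chr11:96145701-96145880; 1.29 and 1.26) and a pair beyond Hoxb1 with 0.538 and 0.735 (chr11:96407781-96408040) and 0.446 and 0.413 (chr11:96413581-96413940).

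The shared peaks had a median signal of 0.918 in the gene spans and 1.01 with the flanks included, against 0.796 over all shared peaks. Replicate 2 was higher at 13 of the 15 in the gene spans, 3 of the 7 in the flanks and 16 of the 22 in all. Over all shared peaks the share was 60.6%. After centring, the libraries lay within 2-fold of each other at each of the 22. In the smaller of the deposited peak lists, 8 of the 15 were present in both libraries and 12 in at least 1. Those lists hold 74072 and 70949 peaks in replicates 1 and 2, against 128269 and 119597 in the larger ones. The share of all shared peaks present in them was not counted.

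**Figure D4:**
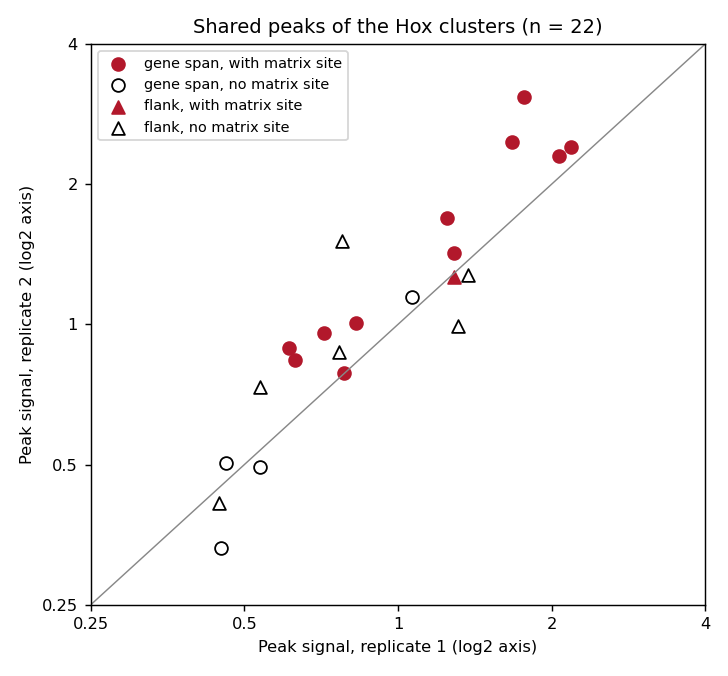
Peak signal of the 22 shared peaks in replicate 1 (x axis) and replicate 2 (y axis), both on log2 axes; circles lie in the gene spans and triangles in the flanks, red fill marks a CTCF matrix site and the line marks equal values. Of the 7 gene-span sites with a mean signal of 1 or more, 6 are filled, and 16 of the 22 points lie above the line.

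The share of sites with a CTCF-like sequence depended on how the sequence was scored. A core pattern of CTCF, 12 positions of which 8 are fixed, sought on both strands in the central 150 bp, was present in 2 of 22 shared peaks (9.09%), at Hoxa7 and Hoxd3os1, against 9.84% of all shared peaks. A scoring matrix of 20 bases was then built from shared peaks more than 1 kb from every TSS and outside the clusters, an alternative chosen after the core pattern had been counted. Its threshold was the score that 1% of windows 5 kb away, outside every peak, exceeded. With it, 11 of 15 shared peaks in the gene spans (73.3%) and 1 of 7 in the flanks held a site, against 18.5% of all shared peaks, 23.3% of those more than 1 kb from every TSS and 2.29% of gene starts. At the score that 0.5% of those windows exceeded, the numbers were 4 of 15 in the gene spans (26.7%) and 14.4% of all shared peaks, so 7 of the 11 Hox sites score between these thresholds.

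Away from TSSs, strong shared peaks held such sites more often, so the peaks were split at a mean signal of 1, without closer matching. In the gene spans, 6 of 7 shared peaks with a mean signal of 1 or more and 5 of 8 below 1 held a matrix site at the 1% threshold. Among all shared peaks more than 1 kb from every TSS the shares were 48.5% and 13.3%. The sets are not alike, because 5 of the 15 Hox peaks lay within 1 kb of a TSS. Within the gene spans, the 11 peaks with a site had a median signal of 1.36 and the 4 without one 0.499, and over all shared peaks away from TSSs the medians were 1.17 and 0.593. All 12 Hox sites, the one in the Ttll6 intron included, were overlapped by a footprint in both libraries, as were 90.9% of the sites of all shared peaks. Among the 46 peaks of the clusters and flanks called in 1 library, 2 held a matrix site, both in Hoxb and both called in replicate 2: at the start of Gm53 and at Hoxb5. The share among all peaks of the genome called in 1 library was not counted, so this number has no background. No protein was measured, so a match shows letters and not binding.

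Motifs of the factors that act on or with HOX proteins were not seen in these sites. The composite motif of PBX and HOX proteins, TGATNNAT, was in 0 of 22 shared peaks, against 3.33% of all shared peaks, a share at which less than 1 peak of the 22 would hold it. The retinoic acid response element, 2 copies of AGGTCA spaced by 5 bases, was in 0 of 22 and in 3 of the 80487 shared peaks (0.00373%). An element that rare would be missing from almost any 22 peaks, so its absence says nothing about the clusters.

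Peaks called in 1 library were concentrated in Hoxd and Hoxa of replicate 1. Of 32 peaks in the gene spans that were called in 1 library, 26 were in replicate 1 and 6 in replicate 2, so 81.2% came from replicate 1, against 56.1% of all peaks called in 1 library. The 32 made up 68.1% of the 47 merged peaks of the spans, against 47.8% over the genome. In Hoxd lay 17 of the 26, and 7 lay in Hoxa. A stretch of 7.765 kb from the 3′ part of Hoxd3 into Haglr, the long noncoding gene between Hoxd3 and Hoxd1 (chr2:74745761-74753525), held 13 merged peaks with signals from 0.126 to 0.315 (median 0.165) and 16 footprints in replicate 1, and no peak in replicate 2. Of its base pairs, 54.7% were listed in replicate 1 and 0 in replicate 2. A stretch of 4.31 kb from just upstream of Hoxa5 across Hoxa6 (chr6:52205692-52210001) held 7 peaks from 0.208 to 0.262 in replicate 1, with 32.4% of its base pairs listed, and again 0 in replicate 2. The promoter peaks of Hoxd3, at its internal starts, and of Hoxa6 are members of these stretches.

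Stretches of that kind also occurred outside the clusters. Of 9404 genomic tiles of 4 kb with at least 30% of base pairs listed in replicate 1, 920 had none listed in replicate 2, and 2 of the 920 lay in the Hox spans. In the other direction there were 461 of 6607, and 0 in the Hox spans. The genome held 658432 tiles in all, and the Hox spans measure 491.8 kb. The tile rule resembles the 2 stretches already seen in the spans, so their presence among the 920 was fixed beforehand and shows no excess. With at least 50% of base pairs listed, 447 tiles had none listed in replicate 2, and 1 of them lay in the Hox spans. Of the 130 genes of the related and marker lists, 7 had a promoter peak in replicate 1 only: En1 (0.983), En2 (0.877) and Pax2 (0.693) of the hindbrain and midbrain list, Dlx2 (0.925) of the forebrain list, Evx2 (0.673), and the ParaHox genes Gsx2 (0.441) and Pdx1 (0.325). In replicate 2 only there were 5: Cldn5 (0.490) of the endothelial list, Pdgfrb (0.764) of the pericyte list, Col1a2 (0.240) of the meningeal list, and Cx3cr1 (0.298) and Csf1r (0.499) of the microglial list. Lmx1b of the hindbrain and midbrain list had no peak in either library, while others of it, such as Gbx2, Atoh1 and Egr2, had one in both. The part of other brain tissue, or of the library itself, in the Hoxd and Hoxa stretches was not tested.

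Across the spans, the listed share of base pairs was 2.20% in replicate 1 and 0.879% in replicate 2, against 1.81% and 1.51% of the genome. Hoxd alone stood at 6.21% and 0.770%, and without Hoxd the spans were at 1.22% and 0.905%, below the genome in both libraries. Hoxa had 2.26% and 1.02%, Hoxb 1.05% and 1.08%, and Hoxc 0.522% and 0.533%. The clusters differed most in replicate 1, and Hoxc was the lowest in both libraries. Footprints numbered 61 and 43 in the gene spans, or 0.124 and 0.0874 per kb, against 0.133 and 0.111 per kb of the genome.

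**Figure D5:**
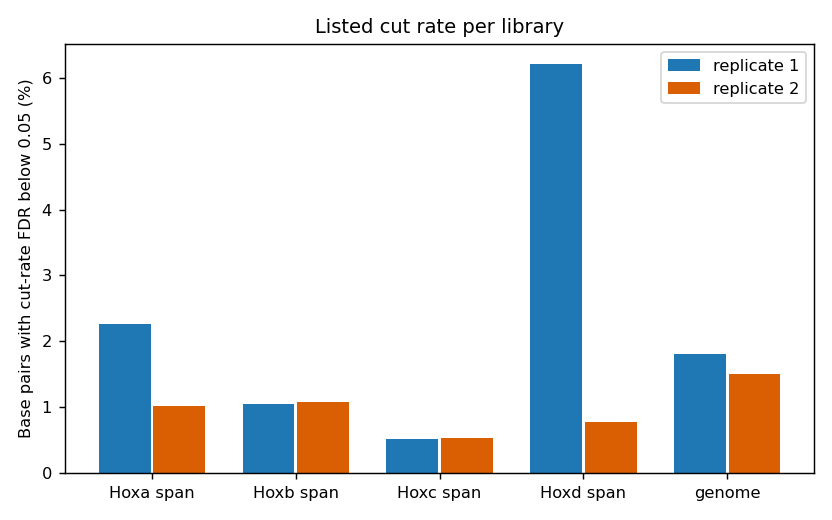
Percent of base pairs with a cut-rate FDR below 0.05 (y axis) in the span of each cluster and in the genome (chromosomes 1 to 19 and X), with 1 bar per library. The Hoxd bar of replicate 1 stands at 6.21%, and that of replicate 2 at 0.770%.

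In contrast to the Hox genes themselves, most genes whose products act with or upon them had open promoters. An open promoter is common, as 64.9% of all protein-coding genes had a promoter peak in both libraries. All 9 TALE cofactors, homeodomain proteins that bind DNA together with HOX proteins, had a peak in both libraries, with a median signal of 2.60. They ran from Pknox1 (4.69 in replicate 1 and 5.23 in replicate 2) to Meis1 (1.70 and 1.53) and Meis3 (0.906 and 1.13). Pknox1 was the highest of the list and Meis3 the lowest in both libraries.

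The Polycomb list, whose products hold Hox genes silent, was open at 19 of 19 (median signal 3.85). Among its highest were Cbx6 (6.51 and 6.93) and Cbx8 (6.02 and 7.36), readers of trimethylated lysine 27, and its lowest were Bmi1 (1.85 and 1.65) and Pcgf2 (1.70 and 1.67), partners of the RING ubiquitin ligases. The Trithorax and demethylase list, which opposes Polycomb, was open at 8 of 8 (median 4.53), from Kmt2a, a histone H3 lysine 4 methyltransferase (7.74 and 9.07), and the demethylase Kdm6a (7.24 and 8.21) to Ash2l (2.97 and 2.57) and the demethylase Kdm6b (0.620 and 0.903).

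Retinoic acid, made by the Aldh1a enzymes and removed by the Cyp26 enzymes, switches on front Hox genes in the embryo. Of its pathway, 11 of 12 promoters had a peak in both libraries (median 0.994). The highest were the receptor genes Rxrb (mean 6.06 ± 1.33, SD, n = 2) and Rarg (2.69 and 2.62). Aldh1a1 (0.233 and 0.447) was the lowest, and Cyp26c1 had no peak and no listed base pair. Median promoter signal was thus lower than the 2.94 of all genes for the retinoic acid list and the TALE cofactors, and higher for the Polycomb and Trithorax lists.

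Few promoters were open among the nearest relatives of the Hox genes, and most were open among the homeobox genes of the forebrain. The share over all protein-coding genes was 64.9% with a peak in both libraries. Of the ParaHox and caudal genes, 2 of 6 had a peak in both libraries, Gsx1 (0.814 and 0.668) and Cdx4 (0.271 and 0.245). Cdx1 and Cdx2 had none in either. Evx1 had none and Evx2 had one in replicate 1. The other 3 protein-coding genes with a start in the spans or flanks had none in either library. Of the forebrain homeobox genes, 13 of 16 had a peak in both (median 1.91), the highest being Pou3f3 (3.37 and 4.03) and Lhx2 (3.05 and 3.14), which act in cortical neurons and their precursors. Otx2 and Dlx6 had none.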

How the data were processed

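DNase-seq calls of 2 libraries were used. Per the labels, the reads were aligned to mm10. Aligner, peak caller and footprint caller: not given in the sources used here. The deposited peak tables, a larger and a smaller list made by the authors for each library by itself, hold the signal, scaled by them to read depth; the larger list was the main one. The deposited footprint tables hold the FDR as a fraction, 0.01 throughout. The deposited cut-rate tables hold q-values of the local cut rate and list those below 0.05.

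Computed here, with Python 3.11.15, pysam 0.24.0 and pandas 2.3.3: peaks on chromosomes 1 to 19 and X were merged where they overlapped by at least 1 bp. Genes and sequence came from GENCODE M21 and GRCm38.p6, the build of the files. Peak merging and motif search were checked on simulated data. All Hox genes with a promoter peak, the 5 strongest shared peaks of each span and the 3 strongest of its flanks were named with values, and of each related gene list up to 4 genes, the 2 highest and 2 lowest or without a peak; genes called in 1 library were named beyond that rule after their values were seen. The members and the gene lists were chosen with earlier results of these data known. With 2 libraries of 1 group no test was made. Reads of the CAST/EiJ copy may align less often; alleles were not analysed here. A few list members are not reported here by name. Alternatives are given in the closing section.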

Additional observations from a re-analysis of the deposited data

How the results depend on the processing

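With 2 libraries, each value rests on few animals, and weak peaks depend on the threshold. Of 55 alternatives over 11 results, 35 kept the value within 1.5 times or within the spread of the libraries. For footprints per kb and the listed share, the value is the mean of the 2 libraries and the spread their SD. Leaving out a library could not move those values beyond that spread, so these alternatives, counted among the 35, are no check. The number of Hox genes with a promoter peak in both libraries was 1 with the outermost start only and 1 in the smaller list, and 3 to 5 when either library was left out; in at least 1 library it was 3 in the smaller list and 3 to 5 with a library left out. Shared peaks in the spans with flanks numbered 13 in the smaller list and 41 with flanks of 100 kb, and inside the spans 8 in the smaller list; with a library left out, the peaks of the other numbered 32 to 58 and 21 to 41. Their median signal became 1.32 and 1.77 in the smaller list, and 0.807 to 1.00 with flanks and 0.828 to 1.01 inside the spans for single libraries. Footprints that overlapped one of the other library numbered 0.0336 per kb with flanks and 0.0447 inside the spans. The listed share with flanks was 0.561% at an FDR below 0.001. A stricter CTCF pattern was in 0 shared peaks, and the added matrix in 12, 5 and 14 at the scores that 1%, 0.5% and 2% of the windows outside peaks exceed, against 18.5%, 14.4% and 22.0% of all shared peaks. Where a setting does not itself drop peaks or a library, the cause was not tested. The matrix and the listed share without Hoxd were chosen after seeing the data. No paired analysis was possible because both libraries belong to 1 group.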
